A study of Mus musculus with 4 samples.

Results

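Distal accessible regions that lay near a protein-coding gene and were open at both E9.5 and E10.5 were described in the mouse forelimb bud. A region of the E9.5 list belonged to the set when it overlapped a region of the E10.5 list by at least 1 bp, lay on an autosome, and had its centre over 2.5 kb and under 100 kb from the nearest transcription start of a protein-coding gene. By this rule 12338 of the 42613 E9.5 regions were members. Counted as rows of the E10.5 list they were 12435 of 46765 regions. The members were chosen by the positions of the accessible regions in both lists, so that presence at both stages is a property of the rule and not a result. No member was selected on its score directly, although a call in each list rests on the p-value behind it.

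Open chromatin of forelimb buds from wild-type NMRI embryos was mapped with ATAC-seq, a method that uses a transposase to cut and tag accessible DNA. The groups were E9.5, so named in the sample titles although the protocol places it slightly later, with proximal trunk tissue attached, and E10.5, for which trunk tissue is not named and the tissue label also names hindlimb buds although the source label names forelimb buds. Each stage had 2 biological replicates, each replicate being the forelimb pair of 1 embryo, and the authors merged them into 1 list per stage. Both groups are unmutated and untreated, stage and trunk tissue cannot be told apart, and the lists hold no value per embryo, so that differences between stages carry no replicate error and were not tested.

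Distal accessible regions include enhancers, which are bound by transcription factors and raise transcription from promoters that can lie far away, and insulator sites bound by CTCF, which take part in folding the chromosome into loops. In the limb bud, enhancers spread over long stretches around genes for signals and transcription factors set where and when those genes are expressed. A region that is open at both stages may be used in different cells or by different factors at each stage. A list of regions does not show this. The nearest gene is a label of position and need not be the gene that a region acts on.

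Each region carries a score assigned by the authors from the best p-value of the peak caller MACS, on a scale of -10 times log10, and it grows with sequencing depth, which is unknown here. Scores of the stages were therefore compared by percentile, the rank of a region among all regions of its list on a scale from 0 to 100. The percentile difference is that of the E10.5 partner minus that of the E9.5 member, in points, and a member is called shifted when it is at least 20 points. Where a member overlapped several E10.5 regions, the best-scoring one was its partner, and 98.7% of the members had 1 partner only.

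The members on which the description of ranks and of genes turns are shown by the central 200 bp of each, from mm9, on the plus strand and 5′ to 3′. Capitals mark matches to any of the 22 short motifs that are spelled out with the motif shares further on. The first 3 are the members whose percentile was highest at E10.5 relative to E9.5, nearest Dnm3, Dusp6 and Camk2d. Windows that touch a UTR were passed over throughout.
Dnm3, chr1:164151020-164151219: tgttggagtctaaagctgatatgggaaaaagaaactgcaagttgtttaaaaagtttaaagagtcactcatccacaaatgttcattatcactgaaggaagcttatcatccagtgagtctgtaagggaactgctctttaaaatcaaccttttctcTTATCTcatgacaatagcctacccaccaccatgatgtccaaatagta
Dusp6, chr10:98733349-98733548: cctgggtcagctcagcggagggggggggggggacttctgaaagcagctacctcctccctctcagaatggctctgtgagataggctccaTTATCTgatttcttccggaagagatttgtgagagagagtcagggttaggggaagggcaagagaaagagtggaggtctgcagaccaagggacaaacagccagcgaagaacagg
Camk2d, chr3:126208725-126208924: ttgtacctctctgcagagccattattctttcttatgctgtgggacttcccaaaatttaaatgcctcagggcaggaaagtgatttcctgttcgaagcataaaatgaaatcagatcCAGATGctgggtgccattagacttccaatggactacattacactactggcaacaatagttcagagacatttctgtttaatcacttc
The next 3 had the highest percentile at E9.5 relative to E10.5 and lie nearest Sdk2, Trpv2 and Asb2. The Trpv2 and Asb2 windows fall outside the narrower E10.5 partner.
Sdk2, chr11:113901912-113902111: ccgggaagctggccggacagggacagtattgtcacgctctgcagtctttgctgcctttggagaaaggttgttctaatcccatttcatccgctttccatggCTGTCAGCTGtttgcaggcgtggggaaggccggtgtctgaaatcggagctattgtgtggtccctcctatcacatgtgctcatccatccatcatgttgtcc
Trpv2, chr11:62420564-62420763: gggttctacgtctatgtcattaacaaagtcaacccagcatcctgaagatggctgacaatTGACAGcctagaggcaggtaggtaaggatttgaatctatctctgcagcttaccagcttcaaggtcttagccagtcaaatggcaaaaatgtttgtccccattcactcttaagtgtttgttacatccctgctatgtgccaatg
Asb2, chr12:104552720-104552919: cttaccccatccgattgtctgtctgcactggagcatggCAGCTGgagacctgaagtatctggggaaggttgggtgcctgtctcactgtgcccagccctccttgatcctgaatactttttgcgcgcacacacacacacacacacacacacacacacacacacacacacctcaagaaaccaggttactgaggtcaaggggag
The numerically highest E9.5 scores of all members, beyond the limit of 3100 given further on, belonged to the following regions nearest Zfp541 and Spen.
Zfp541, chr7:16632915-16633114: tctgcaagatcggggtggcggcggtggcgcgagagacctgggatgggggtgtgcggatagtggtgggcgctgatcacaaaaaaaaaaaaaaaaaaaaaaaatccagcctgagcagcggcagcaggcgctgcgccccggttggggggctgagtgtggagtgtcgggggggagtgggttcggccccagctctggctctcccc
Spen, chr4:141102025-141102224: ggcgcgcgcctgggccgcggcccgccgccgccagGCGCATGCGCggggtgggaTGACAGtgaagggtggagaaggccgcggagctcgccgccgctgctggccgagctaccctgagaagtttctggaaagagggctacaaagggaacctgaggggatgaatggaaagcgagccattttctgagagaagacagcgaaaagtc
The last 3 are the members with the highest summed percentile of the genes that have the most members.
Gm15319, chr8:20020084-20020283: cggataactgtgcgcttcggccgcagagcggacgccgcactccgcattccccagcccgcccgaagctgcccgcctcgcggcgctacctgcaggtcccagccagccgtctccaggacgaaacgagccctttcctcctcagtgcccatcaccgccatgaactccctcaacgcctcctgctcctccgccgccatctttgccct
Ppm1h, chr10:122323836-122324035: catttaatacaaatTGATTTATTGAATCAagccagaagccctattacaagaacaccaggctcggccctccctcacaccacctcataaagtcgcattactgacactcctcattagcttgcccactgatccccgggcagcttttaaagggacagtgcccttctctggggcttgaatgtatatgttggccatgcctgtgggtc
Cwc22, chr2:77738103-77738302: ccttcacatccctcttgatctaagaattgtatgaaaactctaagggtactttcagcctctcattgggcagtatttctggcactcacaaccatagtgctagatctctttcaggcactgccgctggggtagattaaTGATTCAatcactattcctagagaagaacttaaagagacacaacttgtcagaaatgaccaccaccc
The windows higher at E10.5 had a GC content of 37.0%, 55.5% and 40.5%, those higher at E9.5 53.5%, 44.0% and 54.0%, and the windows of the highest-scoring members 62.5% and 65.0%.

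Gene-near distal regions were kept from one stage to the next in 60.2% of cases (12338 of 20486 E9.5 regions, 95% Wilson interval 59.6 to 60.9%). The share was 86.6% for promoter-proximal regions (86.1 to 87.2%) and 57.4% for regions 100 kb or more from a start (56.1 to 58.7%). Of the E10.5 gene-near distal regions, 57.2% were shared (56.5 to 57.8%). All such intervals cover counting error only and treat neighbouring regions as independent. The overlap was extensive, since in 94.8% of the members it covered at least 50% of both regions, and it was under 100 bp in 34 members.

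The members were of moderate width and score. Members had a median width of 982 bp, and their partners one of 944 bp, against 905 bp for the 8148 gene-near distal regions of the E9.5 list alone and 852 bp for the 9321 of the E10.5 list alone. Median scores of the members were 215 (quartiles 138 and 409.9) in the E9.5 list and 219.8 (quartiles 138 and 425) in the E10.5 list. Regions found at 1 stage only scored 142 at E9.5 and 146 at E10.5, and shared promoter-proximal regions scored 1085 and 718. The members therefore stood above the stage-specific regions of the same zone and far below the promoters. A member had to be called in both lists, and the part of this rule in the first difference was not tested. Scores of 3100 or more were held by 44 members at E9.5 and 47 at E10.5, of which 22 were the same regions. The value 3100 was treated as the limit of the score, and order among scores at or above it is not read as strength. Score and width went together across the members (Spearman's rho 0.81 at E9.5, a description over regions that share 1 list).

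The median distance to the nearest start was 19.5 kb (quartiles 8.54 and 42.1 kb). Of the members, 55.9% lay outside protein-coding genes and 39.2% in introns, and of the 4836 in introns 4040 were in an intron of the nearest gene itself. Coding sequence held 2.70% and UTRs 1.95%. The stage-specific regions were more often intronic, at 47.9% for the E9.5 list and 50.1% for the E10.5 list. Upstream of the nearest start were 46.7% of the members. Within 2.5 kb of the start of a gene of another type, such as a non-coding RNA or pseudogene, were 739 members (5.99%), so that a part of the set is promoter-proximal for transcripts that the rule did not use. Those starts belonged to processed transcripts in 244 cases, lincRNAs in 190, pseudogenes in 110 and miRNAs in 75.

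At the borders of the rule, the member closest to a start was 2.501 kb from Fezf1, with scores of 92.02 and 126 at the earlier and later stage, and the nearest region left out was 2.495 kb from Lmo4, with scores of 148 and 586. At the outer limit, a member 99973 bp from Sntn scored 624 and 641, and a region 100136 bp from C530025M09Rik that scored 139.5 and 488 was left out.

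Most members held a similar rank at both stages. Of the members, 7789 (63.1%, 62.3 to 64.0%) differed by less than 20 points, 2644 (21.4%, 20.7 to 22.2%) were at least 20 points higher at E10.5, and 1905 (15.4%, 14.8 to 16.1%) at least 20 points higher at E9.5. Over all 29208 shared autosomal regions, members included, the shares were 14.4% and 13.3%. Shared promoter-proximal regions shifted less, with 2.98% higher at E10.5 and 11.4% higher at E9.5. Shared regions in gene deserts shifted more towards E10.5, with 36.5% and 13.1%. The median E9.5 percentile was 81.5 for the promoters, 43.7 for the members and 40.2 for the desert regions. A region near the top of its list cannot rise by 20 points, so the classes differ in room to rise. The part of this limit in the shares was not tested. Spearman's rho between the scores of the stages was 0.52 over the members, 0.87 over the promoters and 0.33 over the desert regions. The balance between the directions depended on the scale. With percentiles taken among the distal regions of each list, called the distal scale, 2543 members were shifted to E10.5 and 2765 to E9.5, so that 47.9% of the shifted members were higher at E10.5 in place of 58.1%, and the median difference was -0.88 in place of 2.65 points. Of all regions, 61.7% were distal in the first list and 67.1% in the second.

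**Figure D1:**
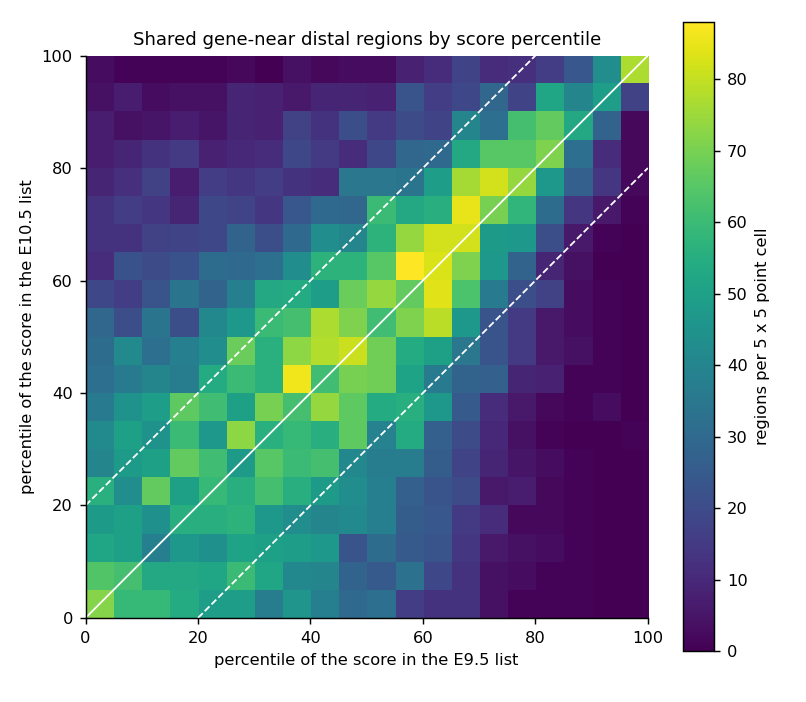
Percentile of the score in the E9.5 list (horizontal) against that of the partner in the E10.5 list (vertical) for the 12338 members, as the number of regions in cells of 5 by 5 points; the solid line marks equal ranks and the dashed lines a difference of 20 points. Most members (63.1%) lie between the dashed lines. On this scale of all regions, the upper left corner, low at E9.5 and high at E10.5, holds more regions than the lower right. The distal scale, on which the balance of shifts turned, is not drawn.

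The strongest shifts towards E10.5 ran from the bottom to the top of the ranking. The 10 members with the largest differences scored between 70.3 and 102 at E9.5 and between 1213 and 3100 at E10.5, a difference of 87.8 to 98.8 points. All 10 were narrow at E9.5, 757 to 1158 bp, and their partners were 1371 to 11098 bp wide. Score and width went together across the members, so width is not a trait apart from score here or in the opposite direction. Of these members, 5 lay in introns and 5 outside genes.

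The largest difference was at chr1:164150704-164151535, in an intron of Dnm3, which encodes a dynamin GTPase of membrane fission, with a score of 70.3 at E9.5 and 3100 at E10.5. This member lies 880 bp from the start of Dnm3os, a non-coding transcript that runs antisense within Dnm3 and is the precursor of miR-199a and miR-214. Its E10.5 partner, 5355 bp wide, also covered another E9.5 region that scored 1358, so that the accessible DNA under this partner was already high in score at E9.5. The next was chr10:98732870-98734027, 7.58 kb downstream of the start of Dusp6, which encodes a phosphatase that dampens ERK signaling and is induced by FGF, with scores of 85.4 and 3100. Its partner spanned 11098 bp, including all of Dusp6, and covered 3 E9.5 regions of which the highest scored 3100. Here too the E10.5 list has 1 broad region where the E9.5 list has several. Across the set, 191 members (1.55%) had a partner that overlapped more than 1 E9.5 region, and without them 2523 members were at least 20 points higher at E10.5.

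The other members of this group had partners of 1371 to 2623 bp. At chr3:126208419-126209230, 90.4 kb upstream of Camk2d, a calcium/calmodulin-dependent kinase, the scores were 78.7 and 1923 in the order of the stages. At chr6:36792384-36793301, 31.5 kb upstream of Ptn, which encodes the secreted growth factor pleiotrophin, it was 73.7 and 1390.0. In an intron of Zfhx4, a zinc finger homeodomain gene, chr3:5329438-5330194 scored 102 and 2622. Each of these 3 was the only E9.5 region under its partner. An intronic member of Ppm1h at chr10:122207181-122207970 scored 92.1 and 1696, and its partner also covered a region that scored 129 at E9.5. The remaining 4 lay nearest Bend4 (70.7 and 1216), Rgmb, a BMP co-receptor (98.5 and 1794), Slc38a4 (72.2 and 1213) and Lsamp (93.8 and 1510.2).

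In the opposite direction the differences were smaller with percentiles among all regions of a list. Differences of these extreme members on the distal scale, where the balance of shifts turned, are not given here. The 10 members ranked furthest below their E9.5 percentile at E10.5 scored 693 to 1453 at E9.5 and 69.8 to 112 at E10.5, a difference of 70.8 to 84.0 points, and each was wider at E9.5 (1103 to 4973 bp) than its partner (668 to 1315 bp). Their median GC content was 57.0%, against 46.3% for the 10 of the opposite direction. The first was chr11:113901277-113902747, in an intron of Sdk2, an adhesion molecule of the immunoglobulin superfamily, with a score of 1422 at E9.5 and 82.0 at E10.5. A region of 4973 bp at chr11:62418178-62423150, in an intron of BC046404 and nearest Trpv2, a cation channel, scored 1224 and 79.8. Near Asb2, a ubiquitin ligase adaptor, chr12:104551676-104553963 scored 1453 and 94.7, and its partner of 791 bp lay at one end of it. The region near Pim1, a serine/threonine kinase, scored 1035 and 91.2, and that near Accn4 scored 1004 and 96.4. Members near the PR domain genes Prdm8 and Prdm16 scored 1442 and 697 at E9.5 and 112 and 69.8 at E10.5. The last 3 lay in introns of Iqsec1 (825 and 86.8), of Bri3 with Baiap2l1 as the nearest start (693 and 71.4) and of Slc6a6, the taurine transporter (697 and 77.9).

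The 5 highest E9.5 scores were 3169 to 3225, beyond the limit of 3100. Their place above members that scored 3100 is not read as strength. All 5 stood high at both stages. They lay near Zfp541 (3225 at E9.5 and 1216 at E10.5), Spen (3200.0 and 1638), Gm17359 (3194 and 2738), Sp110 (3181 and 2179) and Map3k1 (3169 and 3100). The region near Spen, which encodes a transcriptional repressor of the Notch pathway, was 21 bp from the start of an annotated pseudogene, and that near Map3k1, a kinase of the JNK cascade, 76 bp from the start of a processed transcript. The differences of these 5 ranged from -0.42 to -10.4 points.

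Rank shifts followed base composition. Members were split into 5 classes of equal size by GC content. In the lowest class (25.9 to 46.2% GC), 37.6% were at least 20 points higher at E10.5 and 9.4% at least 20 points higher at E9.5. In the highest class (57.1 to 87.0% GC) the shares were 6.0% and 22.6%. The intermediate classes lay in order between them, and Spearman's rho of GC content with the difference was -0.31 over the members. Score tracked GC content at E9.5 (rho 0.32) and hardly at E10.5 (rho 0.02). On the distal scale the shares were 36.1% and 13.5% in the lowest class and 5.75% and 31.2% in the highest. The lists were made from separate libraries whose base composition is unknown, and its part in these differences was not tested.

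Distance moved with the shifts as well. From 2.5 to 10 kb, 16.1% of 3560 members were shifted to E10.5 and 17.7% to E9.5. From 50 to 100 kb, the shares were 27.8% and 15.2% of 2448 members. On the distal scale, the shares shifted to E10.5 were 15.7% and 26.1%, and those shifted to E9.5 25.9% and 20.1%. Median GC content was 52.5% in the first and 50.2% in the last of these bins. The proportion of E9.5 regions that was shared stayed between 59.2% and 61.4% in all 4 distance bins. Across the 19 autosomes, the median difference ranged from -3.19 points on chromosome 11 to 8.81 points on chromosome 3.

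**Figure D2:**
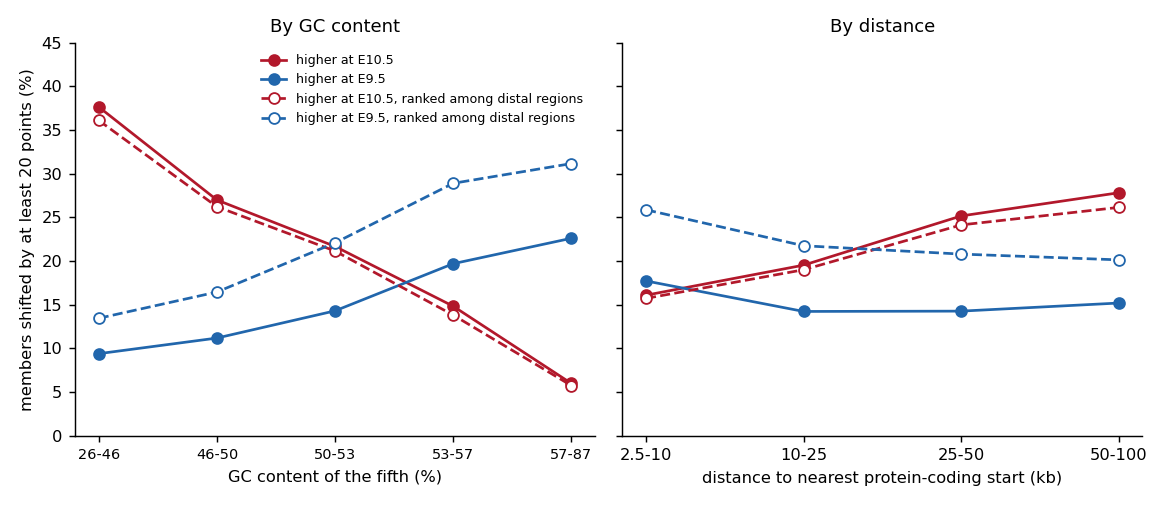
Percentage of members shifted by at least 20 points towards E10.5 (red) or E9.5 (blue) in 5 classes of GC content (left) and in bins of distance to the nearest protein-coding start (right); filled points use percentiles among all regions of a list and open points those among its distal regions. The share higher at E10.5 is 37.6% in the lowest and 6.0% in the highest GC class on the first scale, and the share higher at E9.5 9.4% and 22.6%.

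Motif matches in a short window around the centre of a region, the same length for all,, on either strand, gave a view of the members that the rule did not use. The letters searched were TGANTCA for AP-1, CAGCTG and CAGATG for E-boxes, the latter bound by bHLH factors such as TWIST and HAND, TAATTA for homeodomain factors, TGATTNAT for HOX with PBX, TGATTGACA for PBX with MEIS, TGACAG for MEIS and CATTCCA for TEAD. For GATA factors the letters AGATAA were searched. Those searched for SOX factors were ACAATGG, those for the WNT effectors TCF and LEF ATCAAAG. Further letters were CCGGAAGT for ETS, TGTTTAC for FOX, GGGTGGTC for GLI, GTCTAGAC and GGCGCC for SMAD, AGGTGTGA for T-box, ATGCAAAT for POU, GCCNNNGGC for TFAP2, GGGGCGGGG for SP/KLF and GCGCATGCG for NRF1, with CTCF by its consensus. Matches to the MEIS, PBX-MEIS and HOX-PBX letters can overlap. None of the 22 was present in 17.6% of the members.

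CTCF was matched in 5.72% of the members (5.33 to 6.15%), against 2.90% of the E9.5-only and 2.59% of the E10.5-only regions, 2.78% of the shared desert regions and 2.96% of all autosomal E9.5 regions. At equal GC content, that of the middle class (2800 members, those at its limits included), the shares were 8.07% of the members and 3.08% and 2.30% of the stage-specific regions of the same GC content. The 706 members with a match were more often within 20 points, at 74.5% against 62.4% of those without. Spearman's rho between the scores of the stages was nearly equal, 0.53 with and 0.51 without a match. Members with a match had lower scores, 157 against 222 at E9.5 and 159.9 against 226.5 at E10.5. They were more frequent near starts, with 6.91% of members at 2.5 to 10 kb and 3.19% at 50 to 100 kb.

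Homeodomain letters stood in 6.86% of the members, 10.48% of those shifted to E10.5, 4.93% of those shifted to E9.5 and 14.5% of the E10.5-only regions. All autosomal E9.5 regions had 5.16%. At equal GC content, the shares were 7.72% of members shifted to E10.5, 3.41% of those shifted to E9.5 and 9.29% of the E10.5-only regions. The distances between the shares were thus smaller. Intervals are not given for them, and no order is read between members shifted to E10.5 and E10.5-only regions. The E-box CAGATG was found in 27.7% of the members, and in 34.5% and 27.9% of those shifted to E10.5 and E9.5. Its share was 23.2% in all autosomal E9.5 regions, 29.7% in the E9.5-only, 33.7% in the E10.5-only and 34.0% in the shared desert regions. At equal GC content, the shifted groups had 36.6% and 32.7%, without intervals here, and no order is read from these 2 shares. GATA letters were in 11.2% of the members and 16.1% of the E9.5-only regions, and SOX letters in 3.29% and 6.87%. HOX-PBX letters were in 5.71% of the members and 11.1% of the shared desert regions. The SMAD letters GGCGCC were found in 7.72% of the members, 4.01% of those shifted to E10.5 and 8.66% of those shifted to E9.5. At equal GC content, these shifted groups had 5.54% (33 of 596, 3.97 to 7.67%) and 3.9% (16 of 410, 2.42 to 6.24%). The intervals overlap, so no order is read from the shares at equal GC content. GTCTAGAC was found in 40 members (0.32%).

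**Figure D3:**
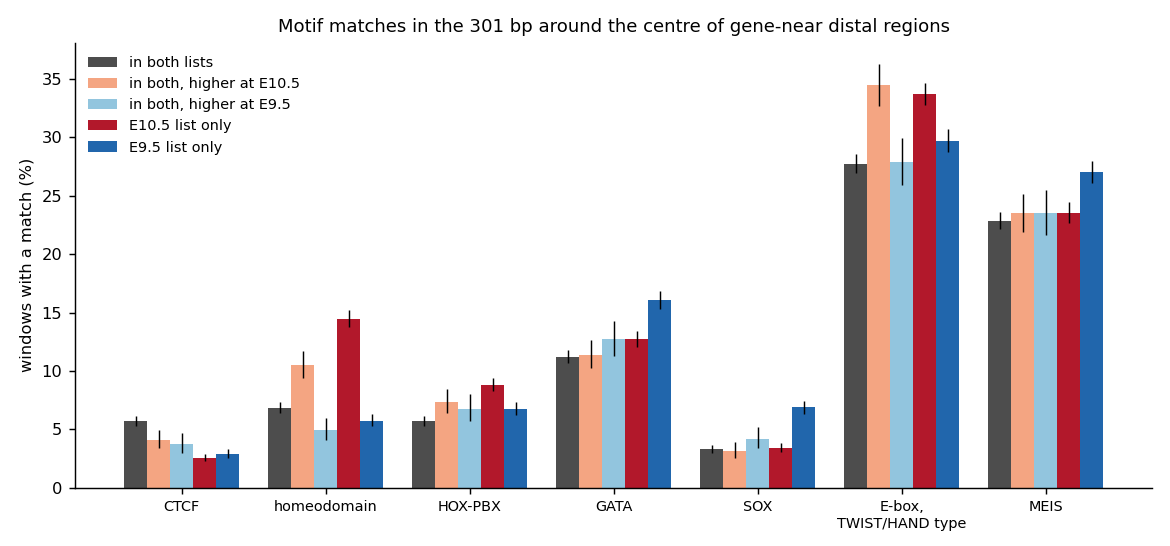
Percentage of central windows with at least 1 motif match (vertical) for 7 motifs in all members, members shifted by at least 20 points in each direction, and gene-near distal regions of 1 list only; bars start at 0 and lines are 95% Wilson intervals for counting error. CTCF is most frequent in the members (5.72%), and the homeodomain letters in regions of the E10.5 list only (14.5%).

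The members were spread over many genes. Of 21281 autosomal protein-coding genes, 6637 (31.2%) were nearest to at least 1 member, and 3838 of them to exactly 1. At least 5 members were nearest to each of 363 genes, which held 2341 members (18.97%). The density was 0.897 members per 100 kb of the territory in which a start is the nearest. The 20 genes with the most members had 11 to 18 each and 257 in all (2.08%). Of these 20 genes, 18 had an accessible promoter at both stages. So had 4874 of the 6637 genes with members and 13221 of all 21281 autosomal protein-coding genes. A promoter was called accessible when the centre of a region lay within 2.5 kb of a start of the gene. A wide region can therefore cover a start without such a call, as at Dusp6 in the E10.5 list. Counts of regions are not corrected for the length of the territory, so members per 100 kb are given beside them.

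Gm15319 and Ppm1h led with 18 members each. Gm15319 (chr8:19933242-19958788), a predicted gene without an accessible promoter at either stage, had 9.23 members per 100 kb, with E9.5 scores of 85.3 to 1836 and E10.5 scores of 86.7 to 2669. In 9 of its 18 members, over 10% of the 24-base words recurred in another member, against 2.72% of all members, and reads from such near-identical copies can be assigned to either copy or be discarded as ambiguous. The count of this gene is therefore uncertain, and without members of this kind Ppm1h led alone with 18. The Gm15319 member shown above was 109 bp from the start of a processed transcript.

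Ppm1h (chr10:122115818-122382851), which encodes a protein phosphatase, had 14 of its 18 members in its own introns, at 4.65 members per 100 kb. Scores ranged from 92.1 to 2434 at E9.5 and from 88.5 to 3100 at E10.5, with medians of 226.5 and 446. At least 20 points higher at E10.5 were 7 members and at E9.5 was 1, and the median difference was 4.57 points. On the distal scale the latter was -0.11 points.

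Cwc22 (chr2:77719216-77784432), a splicing factor gene, had 17 members and the broadest regions of the 3. The widest covered 23276 bp, chr2:77726565-77749840, and the median width of its members was 4465 bp. Scores were high, with medians of 718 and 1586 at the earlier and later stage, the median GC content was 35.9%, and 16 of 17 members ranked higher at E10.5 (12 of 17 on the distal scale). Among the higher-scoring 50% of each list this gene had the most members, 16. Several neighboring members were separated by short gaps, and the count depends on where the authors' caller split them.

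Zfp184 (chr13:22036981-22052648), a zinc finger gene, had the densest group of the 20, with 19.01 members per 100 kb. All 13 lay upstream, within 48.0 kb, and only 1 was shifted by at least 20 points. No region near this gene was found at 1 stage only. Zfp516, another zinc finger gene, also had 13 members, with median scores of 450.2 and 578 and a median difference of 5.23 points (-0.23 on the distal scale).

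Several leading genes are known regulators of limb development. Meis2, which encodes a TALE homeodomain factor of the proximal limb, had 13 members, with median scores of 359.6 at E9.5 and 209 at E10.5. Of these, 9 ranked higher at E9.5 and 4 at E10.5, and the median difference was -11.2 points (-14.5 on the distal scale). The member with the highest E9.5 score lay beyond the 3′ end of the gene, with 2882 and 1372 at chr2:115684561-115687208, while an intronic member 2.99 kb from a start, chr2:115694434-115696940, scored 762 and 1803. Lmx1b, the LIM homeodomain gene of dorsal limb identity, had 12 members that were split evenly, 6 ranking higher at each stage, and they differed in opposite directions along the locus. The intronic members 3.50 kb and 15.8 kb from a start scored 499 and 271 at E9.5 and 111 and 100.3 at E10.5. In contrast, 2 members 77.6 and 79.1 kb from the start scored 110.5 and 102 at E9.5 and lay under 1 partner that scored 353. Gli2, a transcriptional effector of SHH signaling, had 11 members with median scores of 203 and 342 and a median difference of 16.9 points (5.04 on the distal scale). Smad7, which encodes an inhibitory SMAD of the BMP and TGFβ pathways, had 11, of which 5 ranked higher at E10.5 and 6 at E9.5, with 4 shifted to E10.5 and 1 to E9.5 and a median difference of -1.87 points.

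Dnm3 stood out for its direction. All 12 of its members lay in its introns and ranked higher at E10.5, by 5.25 to 98.8 points with a median of 29.7, and 10 of 12 did so on the distal scale, where the median was 35.1. Besides the pair under 1 partner described above, the earlier and later scores were 197 and 2639 at chr1:164153262-164156296, 143 and 1479.6 at chr1:164116707-164117599 and 144 and 919 at chr1:164005055-164006188. Others scored alike, such as 665 and 639.8 at chr1:164211682-164212939.

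The remaining leading genes fell on both sides. Odz4, a teneurin gene, had 13 members and a further 20 regions of the E10.5 list and 9 of the E9.5 list alone, and its median difference was 16.3 points. Tns3 (tensin), Farp1 and Tiam1 (exchange factors for small GTPases) and Itpr1 (an IP3 receptor) had 13, 12, 12 and 11 members with median differences of 13.9, 18.03, 8.87 and 15.2 points. Negative medians were found at Gse1 (12 members, -14.8), Dlk1, an imprinted regulator of growth (12, -7.86, on the distal scale -13.9), Smug1, a DNA glycosylase gene (11, -18.3), and Maml3, a Notch coactivator (12, -1.62, on the distal scale -7.81). The Smug1 members, from position 102932064 to 103016904 on chromosome 15, lie next to the HoxC cluster, where the Hoxc4 gene ends at 102867274. 6430527G18Rik had 11 members and a median of 4.78 points (-0.27 on the distal scale).

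**Figure D4:**
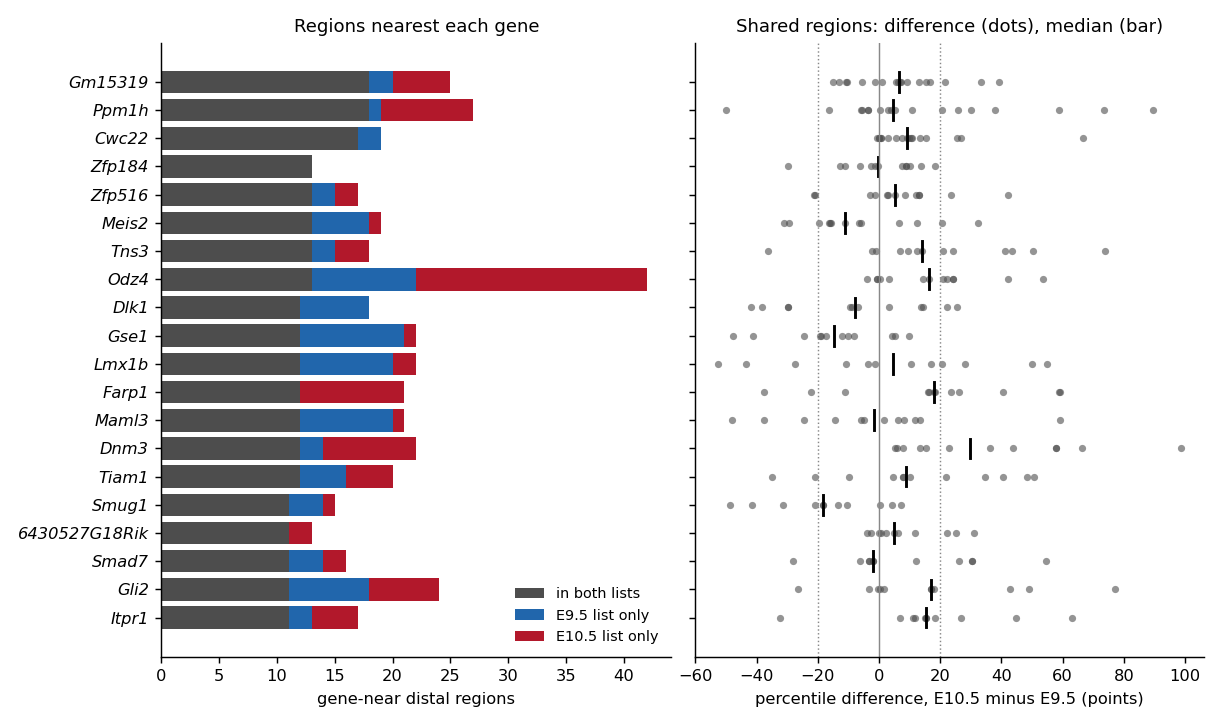
Left, number of gene-near distal regions nearest each of the 20 leading genes, in both lists (grey), the E9.5 list only (blue) or the E10.5 list only (red); right, percentile difference of each shared region (dots) in points, with the median (bar) and dotted lines at 20 points. All 12 Dnm3 members lie to the right of 0, and the medians of Smug1 (-18.3) and Gse1 (-14.8) lie furthest to the left.

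Lists of genes with known roles were described by the same difference, to be read against the median of 2.65 points and the 21.4% and 15.4% shifted over all members. The Hox genes, which pattern the body axis and the limb, stood at one extreme. Of 39 Hox genes, 13 were nearest to 21 members, all 21 of which ranked higher at E9.5, also on the distal scale, with 12 shifted to E9.5 and none to E10.5. Their median scores were 414 and 168 in the order of the stages, and the median difference -27.5 points. Hoxc4 had 6 members with scores of 147 to 1419 at E9.5 and 85.5 to 802 at E10.5, all lower in rank at E10.5 by 3.59 to 57.9 points. The 2 members of Hoxa4 scored 357 and 389 at E9.5 and 69.6 and 95.2 at E10.5, and the 3 of Hoxd3 scored 809 to 1221 and 200.3 to 435. The smallest differences were those of Hoxd9 (-0.84) and Hoxc6 (-1.50). Less the median of members of equal GC content, the Hox median was -24.0 points. Including every member with a Hox start under 100 kb away, there were 28, with 14 shifted to E9.5 and 1 to E10.5. Since the E9.5 samples kept trunk tissue, in which these genes are also expressed, stage and tissue cannot be told apart here.

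Somite and trunk mesoderm genes had 50 members with a median of -10.1 points, 18 shifted to E9.5 and 7 to E10.5. Pax3, a regulator of muscle precursors and dorsal neural tube, had 6 members with median scores of 345 at E9.5 and 132 at E10.5, of which 4 were shifted to E9.5. Foxc1 had 7, with 3 shifted to E9.5 and 1 to E10.5 and median scores of 318 and 167, and Pax1, a sclerotome gene, had 6, with 3 and 2. Muscle precursor genes, Pax3 among them, had 22 members, a median of -9.95 points and 7 shifted to E9.5 against 2 to E10.5. Myf5, a myogenic bHLH gene, had 2 of them, with median scores of 121 and 123. Cartilage genes had 23 members, with a median of -8.04, 6 shifted to E9.5 and 4 to E10.5. Sox5, a chondrocyte transcription factor gene, had 7 members with median scores of 208 and 210.2, of which 4 ranked higher at E10.5. Nkx3-2 had 3, of which 2 were shifted to E10.5 and 1 to E9.5, and all 3 of Barx1 ranked higher at E9.5 by 0.49 to 17.0 points. On the distal scale the medians of the somite, muscle and cartilage lists were -14.6, -16.2 and -14.1 points. The part of the attached trunk tissue in these values was not tested.

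The 34 transcription factor genes of the limb bud mesenchyme had the most members of any list, 114 at 30 genes. Shifts went both ways, with 22 to E10.5 and 25 to E9.5 and a median of -0.73 points. On the distal scale, 21 were shifted to E10.5 and 33 to E9.5, 65 of 114 ranked higher at E9.5, and the median was -5.14 points. Msx1, a homeobox gene downstream of BMP signaling, had 9 members with scores of 131 to 1525 at E9.5 and 84.4 to 1085 at E10.5, of which 6 ranked higher at E10.5. Tbx5, the forelimb initiation gene, had 2 members, 1 lower by 46.2 points and 1 higher by 17.5 points at E10.5.

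Members near signaling genes had medians above 0, but only those of the WNT and FGF lists exceeded the 2.65 points of all members. On the distal scale all members had a median of -0.88 points, and of these lists only that of the WNT pathway lay above it. WNT pathway genes had 55 members with a median of 6.44 points (0.72 on the distal scale), 20 shifted to E10.5 and 9 to E9.5. Axin2, a feedback target of the pathway, had 5 members with median scores of 299 and 567, and Tcf7l1, a transcriptional repressor of the pathway, 5 with 215 and 142. Fzd10, which encodes a WNT receptor, had 4 with 165 and 178. FGF pathway genes had 36 members, a median of 4.12 points and 10 and 4 shifted, on the distal scale -1.20 points. Dusp6 contributed 6 of them, 4 of which were shifted to E10.5, with median scores of 592 and 1509 in the order of the stages. The receptor gene Fgfr1 and the feedback inhibitor gene Spry2 had 4 members each, none of them shifted, with median scores of 445 and 438 and of 355 and 297. BMP pathway genes had 58 members, with a median of 2.58 points (-1.60 on the distal scale) and 15 and 8 shifted. Gdf6, a BMP ligand gene of joints, had 7 members, of which 6 ranked higher at E10.5, and the 4 of Bmp7 included 3 that were shifted to E10.5, with median scores of 309 and 981. SHH pathway genes had 44 members and a median of 1.20 points (-1.41 on the distal scale), with 11 and 10 shifted. Boc, which encodes a co-receptor for SHH, had 7 members with median scores of 412 and 652, and Ptch1, the SHH receptor gene, 6 with 221 and 202. Retinoic acid genes had 29 members and a median of 1.76 points (-3.05 on the distal scale). Rarb, a retinoic acid receptor gene, had 6 members, of which 1 was shifted to E10.5 and 2 to E9.5, and Rdh10, which encodes an enzyme of retinoic acid synthesis, 3 with median scores of 231 and 437. All 5 members of Crabp1, a retinoic acid binding protein gene, ranked higher at E10.5 (median scores 139 and 265).

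Genes of other tissues lay close to the median of all members. Neural tube and neural crest genes had 28 members (median 1.12 points, 3 shifted to E10.5 and 5 to E9.5), blood and blood vessel genes 33 (4.60 points, 7 and 4), and ectoderm and apical ridge genes 28 (3.91 points, 7 and 5). On the distal scale these medians were -1.85, -1.37 and -0.06. The neural genes Pax6 and Sox2 had 4 members each, with median scores of 233 and 339.7 and of 155 and 141. Of the vascular and blood genes, the transcription factor genes Fli1 and Tal1 had 5 and 4 members, with 3 Fli1 members shifted to E10.5 and 1 to E9.5 and no Tal1 member shifted, and Cdh5 had 7 upstream of its start, 1 of them shifted. Of the ectodermal genes, Sp8, a zinc finger gene of the apical ridge, had 6 members with median scores of 248 and 557, 5 of which ranked higher at E10.5, and Tcfap2b had 5, of which 3 were shifted to E10.5. The 3 members of the epithelial adhesion gene Epcam had median scores of 351 and 336. Promoters of all 5 mesenchymal markers examined were accessible at both stages, as were those of the 4 somite markers and of 3 neural markers, and so were those of the blood and vessel markers Tal1 and Kdr and of the epithelial marker Epcam. By the call from region centres, the promoters of the endothelial gene Cdh5 and the epidermal gene Trp63 were called in neither list. That of Cdh1 was called in the E9.5 list only. The hindlimb gene Tbx4 had an accessible promoter at both stages and Pitx1 at E9.5 only. Among all 21281 autosomal protein-coding genes, 13221 had an accessible promoter at both stages. Cholesterol synthesis genes had 6 members at 6 of 18 genes (33.3%, against 31.2% of all autosomal protein-coding genes), with a median of -3.87 points (-9.96 on the distal scale). One of them, in Fdft1, the squalene synthase gene, scored 272 and 72.0 in the order of the stages, whereas that nearest Lss, the lanosterol synthase gene, scored 223 and 188.

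**Figure D5:**
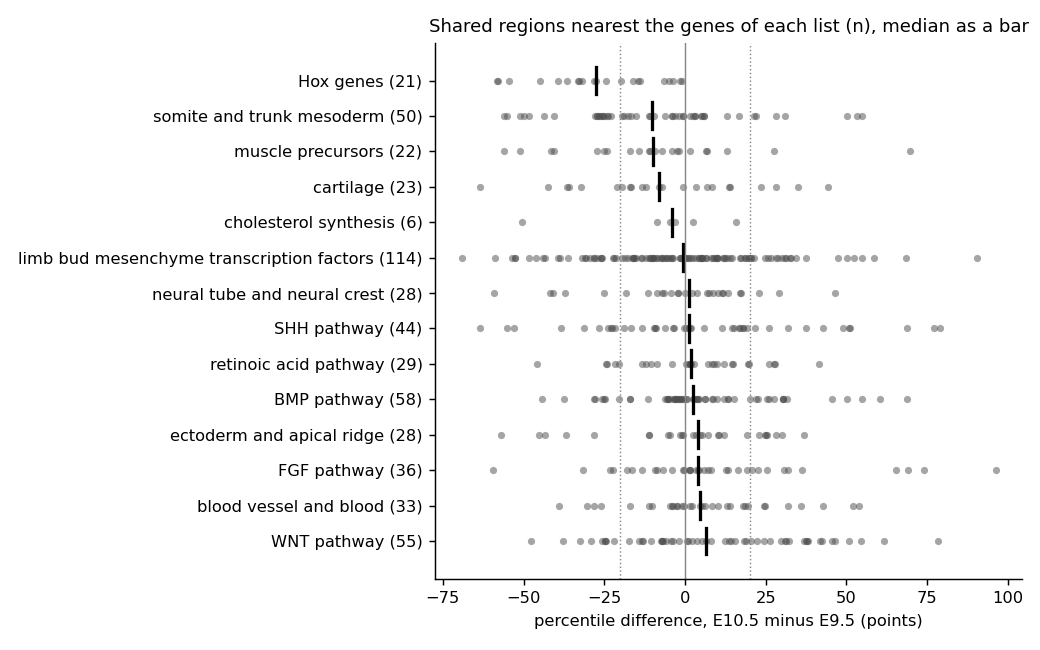
Percentile difference, E10.5 minus E9.5, in points (horizontal) for each member nearest a gene of the 14 lists (dots; number of members in parentheses), ordered by the median (bar), with dotted lines at 20 points. All 21 Hox members lie to the left of 0, while the other lists span both sides. Of the positive medians, on the distal scale that of the WNT pathway stays above 0 (0.72).

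Among the 363 genes with at least 5 members, 32 had every member higher at E10.5 and 11 every member higher at E9.5; on the distal scale these counts were 22 and 21. The following genes were singled out after their values were seen. On the E10.5 side were Mecom, a zinc finger regulator of blood stem cells (8 members, median 34.3 points), Fnbp1l (6, 35.9), Col1a2, a type I collagen gene (7, 22.8, median scores 344 and 1296), Isl1, a LIM homeodomain gene (5, 22.9), and Sema3a, an axon guidance gene (5, 18.03). On the E9.5 side were Cstad (9 members, -21.5 points, median scores 400.2 and 127), 1700001O22Rik (7, -25.0), Nr2f2, an orphan nuclear receptor gene (5, -11.8), Ski, a SMAD corepressor gene (5, -9.62), and Wnt10a (6, -8.51). None of the 11 had a further region in the E10.5 list alone within its territory, but the share of such genes among the 363 is not given here. On the E10.5 side, Isl1 and Sema3a likewise had none in the E9.5 list alone, while Mecom, Fnbp1l and Col1a2 had 3, 1 and 2.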

How the data were processed

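ATAC-seq data of E9.5 and E10.5 forelimb buds were used as 1 combined list of accessible regions per stage. The authors aligned reads to mm9 with Bowtie 1.1.0, called regions with MACS 1.4 without a control, and combined both replicates with MSPC. Column 5 of the deposited lists is the authors' score, the log10 of the lowest MACS p-value of a region times -10, so it is not a read count, and values per replicate and depth were not used here. The mm9 reference and GENCODE vM1 gave sequence and genes, and 0 regions ran past a chromosome end.

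From these, overlaps, distances, percentiles, GC content (in a fixed window around the centre) and exact motif matches were computed with Python 3 (pandas, numpy, scipy), and the functions were tested on simulated regions. Intervals are 95% Wilson intervals. The regions, members and gene lists were chosen with earlier results of these data known, and no test was made. Named were the 20 genes nearest most members (ties by members per 100 kb, then symbol), the 3 leading genes of each list (some of which are not reported here), the 5 members of highest E9.5 score and the 10 with the largest percentile difference in each direction; others were chosen after their values were seen. Of the gene symbols, Disp1, Sox1 and Hmgcs1 were not matched and were not analysed here, and 3 were matched through synonyms.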

Additional observations from a re-analysis of the deposited data

How the results depend on the processing

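Of 40 alternatives, 33 left the result within its counting interval or within 1.5 times its count. The balance of shifted members and the sign of the median difference did turn with the scale. The number of members, 12338, was 9890 to 13639 with other distance limits, all gene types or reciprocal overlap, and 3567 in the higher-scoring 50% of each list, which holds fewer regions by construction. The share of E9.5 gene-near distal regions that were shared was 57.2% with reciprocal overlap of 50%, 59.5% with starts of all gene types and 55.0% in the higher-scoring 50%. The rank correlation was 0.56 with reciprocal overlap. The median GC content of members shifted to E10.5 minus that of members shifted to E9.5 was -5.65 percentage points (-5.25 for whole regions). The share in introns was 39.2%, and 43.0% lay wholly inside a protein-coding gene. Shifted members numbered 2006 to 2634 towards E10.5 and 1655 to 2765 towards E9.5 under the alternatives, against 2644 and 1905, and were 2591 and 2596 with percentiles among the members alone and 2543 and 2765 among distal regions, so that E9.5 then outnumbered E10.5, and the median difference of 2.65 points was -0.69 and -0.88; for GC-centred differences (2006 and 2229) and the single-partner set the alternative was added after seeing the data. The leading gene was Gm15319 with reciprocal overlap (15 members), Cwc22 in the higher-scoring 50% (16) and Pom121l2 with Zfp184 when every start under 100 kb counted (22). No paired analysis was possible because the replicates of a stage were combined into 1 list, and leaving out a replicate was not run for the same reason. Depth is unknown, so a region missing from a list is not shown to be closed.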

Other observations

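Some runs of closely spaced members, chosen after their values were seen, are given here. The tightest of those listed had 11 members nearest Gm15319 within 27.8 kb on chromosome 8, with median scores of 169 and 173. On chromosome 13, 13 members nearest Zfp184 stood within 45.2 kb, 12 nearest Gpx5 and Trim27 within 65.1 kb and 8 nearest Btn2a2 and Hist1h4h within 29.5 kb. The letters GTTCGANTC on either strand, the B box inside tRNA genes, were found in 9, 5 and 5 of these members, against 156 of all 12338 (1.26%), and 32 of those 156 lay on chromosome 13 between 21 and 24 Mb, among 69 members there. Members with these letters had median scores of 488 at E9.5 and 394 at E10.5, against 213 and 219 without. The letters were searched over the whole region and not in the short central window. Wider regions, which also scored higher, thus had more room for a match, and the part of width was not tested.

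On chromosome 7, 9 members nearest Mrpl23 stood within 38.6 kb (chr7:149728349-149766945), and the nearest start of any gene type was that of H19, an imprinted non-coding RNA, for 4 of them and of Nctc1 for another 4. Their median scores were 355 and 198 in the order of the stages, with 6 shifted to E9.5 and 2 to E10.5. Near Dlk1, an imprinted gene, 9 members within 57.2 kb on chromosome 12 had median scores of 464 and 280.2, with 3 and 1 shifted.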
